A study of Sus scrofa with 2 samples.

Results

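The collagen genes described here are the 39 genes whose symbol in the deposited matrices has the form COL, number, A, number, out of 31908 genes. They fall into 10 fibrillar collagens, 7 basement membrane collagens and 22 others. COL4A1 and COL24A1 are in the matrices under a gene identifier alone, so the rule does not take them. Their values, named through a table of Ensembl identifiers, are given beside those of their relatives. The nuclei came from frozen left ventricular free wall (heart muscle) of Bama pigs, a miniature breed, fed a diet rich in fat and sucrose for 12 months. The wild-type group (WT) and the triple-transgenic group (TG, PNPLA3I148M-GIPRdn-hIAPP) are 1 library each, and both received the diet. The sources used here do not say which promoters drive the transgenes, how old the pigs were or how many animals a library holds. With 1 library per genotype, animal, library and genotype cannot be told apart, there is no replicate check, and no p-values are given.

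A collagen molecule is a triple helix of 3 chains, and each gene encodes 1 chain. Fibrillar collagens (COL1A1, COL1A2 and COL3A1 above all) assemble into the cable-like fibres that give the heart wall its stiffness and are made mainly by fibroblasts. Basement membrane collagens, with type IV at their core, form the sheets under endothelium and around muscle cells and pericytes. The remaining genes encode microfibrils of type VI, fibril-associated collagens that coat fibres, short network collagens such as type VIII, and collagens that span the cell membrane.

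The WT library kept 16725 nuclei with a median of 5442 unique molecular identifiers (UMIs, counted RNA molecules), and the TG library 14939 with a median of 3937. Nuclei were clustered with the collagen genes left out of the gene selection and named from marker lists that hold no collagen, which gave 9 classes with at least 100 nuclei in each library. Their own markers were detected in all 9 classes, with none at 0. Clusters with markers of unrelated classes, 10.2% of WT and 15.8% of TG nuclei, were set aside. Cardiomyocyte transcripts were found in every other class, and at a higher level in TG. Their 13 markers summed to 6.81% to 38.3% of the cardiomyocyte level in the 8 other WT classes and to 25.3% to 55.7% in TG, with none of the 13 at 0. The libraries shared 81 barcodes. Levels are in CPM (UMIs of a gene scaled to the nuclear-encoded UMIs of its class), with exact 95% intervals that cover counting error only. A gene was called higher or lower in TG when its ratio reached 1.5 and the interval left out 1, with at least 20 UMIs over both libraries. UMI levels of different genes also depend on length and priming sites, so levels are compared for the same gene between classes and libraries.

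Fibroblast-like nuclei held the most collagen. All 39 genes together reached 13625 (WT) and 10930 CPM (TG) there, against 599 and 653 CPM in cardiomyocyte-like nuclei. Of the 39 genes, 25 reached 50 CPM in at least 1 class of 1 library. Of those 25, 13 in WT and 15 in TG were at their highest level in fibroblast-like nuclei. The others peaked elsewhere: in WT, 4 in smooth muscle-like, 3 in vascular endothelial-like, 2 in pericyte-like, 2 in Schwann or neural-like nuclei and 1 in lymphocytes. The same class was highest in both libraries for 19 of the 25.

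**Figure D1:**
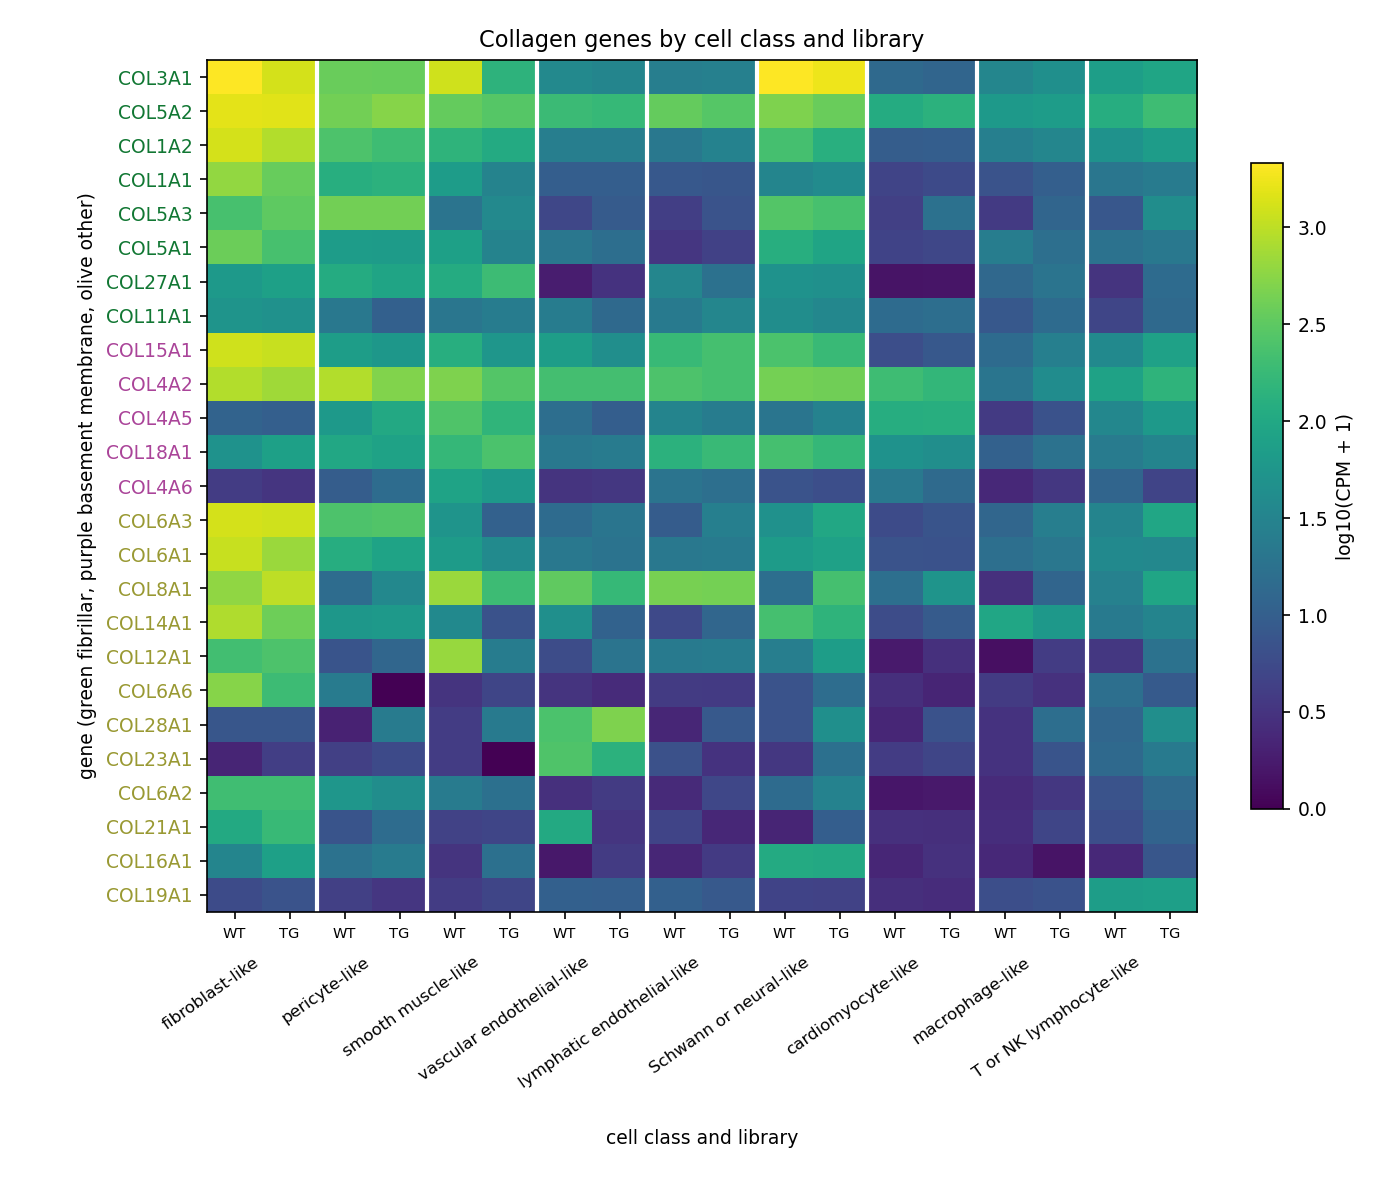
Levels of the 25 collagen genes that reached 50 CPM, as log10(CPM + 1), in rows, with the 9 cell classes and the WT and TG libraries in columns. Fibroblast-like nuclei are bright for most fibrillar and type VI genes, while COL4A5 peaks in smooth muscle-like nuclei, COL28A1 and COL23A1 in vascular endothelial-like nuclei and COL19A1 in lymphocytes.

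Among the fibrillar genes, COL3A1, the chain of type III fibres, stood at 2145 CPM in fibroblast-like and 2114 CPM in Schwann or neural-like WT nuclei. Those levels differed by less than counting error, with a ratio of 1.01 (95% interval 0.966 to 1.07). In TG the Schwann or neural-like level, 1760 CPM, was 1.36 times (1.27 to 1.46) the fibroblast-like level of 1293 CPM. COL1A2, a chain of type I fibres, did not follow: it stood at 220 (WT) and 125 CPM (TG) in Schwann or neural-like nuclei, far under its 1301 and 894 CPM in fibroblast-like nuclei. COL3A1 thus had 9.60 times the UMIs of COL1A2 in WT Schwann or neural-like nuclei (8.22 to 11.3) and 14.0 times in TG (11.0 to 18.1), against 1.65 and 1.45 times in fibroblast-like nuclei. COL16A1, a fibril-associated collagen, was also highest in Schwann or neural-like nuclei in both libraries, at 108 (WT) and 102 CPM (TG). The next class, fibroblast-like nuclei, had 32.3 (WT) and 78.1 CPM (TG), and in TG the classes did not differ beyond counting error (ratio 1.31, 0.975 to 1.73).

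COL5A2, a type V chain that sits inside type I fibres, was detected in all 9 classes. It ranged from 60.3 CPM in macrophage-like to 1589 CPM in fibroblast-like WT nuclei, and from 68 to 1535 CPM in TG. Cardiomyocyte-like nuclei held 113 CPM of it in WT and 139 CPM in TG, while their COL5A1, the usual partner chain, stood at 3.63 and 4.19 CPM. COL5A1 had 0.0323 times the UMIs of COL5A2 in WT cardiomyocyte-like nuclei and 0.243 times in WT fibroblast-like nuclei, with intervals that do not overlap. The low ratio was not particular to cardiomyocyte-like nuclei: in lymphatic endothelial-like nuclei it was 0.00671 in WT and 0.0119 in TG. COL5A3, the third type V chain, was highest in pericyte-like nuclei, at 417 (WT) and 412 CPM (TG). Fibroblast-like nuclei had 230 and 320 CPM of it. COL27A1, a fibrillar collagen known from cartilage, reached 110 CPM in both pericyte-like and smooth muscle-like WT nuclei. COL11A1, a minor chain of fibre cores, stayed between 3.90 and 52.7 CPM in all classes. COL11A2 and COL2A1, both cartilage collagens, were too scarce to compare in any class.

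The basement membrane genes were shared among more classes. COL4A2, which pairs with COL4A1 in the common type IV network, stood at 886 CPM in fibroblast-like and 885 CPM in pericyte-like WT nuclei, a ratio of 1.00 (0.933 to 1.08). In TG these were 719 and 496 CPM. Cardiomyocyte-like nuclei had 196 (WT) and 160 CPM (TG), and the lowest class, macrophage-like nuclei, had 18.5 and 40.1 CPM. T or NK lymphocyte-like nuclei had more than macrophage-like nuclei, with values given below, and in TG stood near the cardiomyocyte-like level. COL4A1 itself, outside the rule, had 908 and 600 CPM in fibroblast-like nuclei and 25.2 and 22.1 CPM in cardiomyocyte-like nuclei. The UMI ratio of COL4A1 to COL4A2 was thus 1.02 in WT and 0.835 in TG fibroblast-like nuclei, 0.534 and 0.642 in pericyte-like nuclei, and 0.129 and 0.138 in cardiomyocyte-like nuclei. The RefSeq models of this pair on Sscrofa11.1 chromosome 11 (COL4A1 at 76858332 to 76997409, COL4A2 at 76996885 to 77161617) overlap by 525 bases, and how the counting assigned reads there is not given in the sources used here.

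COL4A5, the X-linked type IV chain mutated in Alport syndrome, had another distribution. It was highest in smooth muscle-like nuclei (259 CPM in WT, 150 CPM in TG), followed by cardiomyocyte-like nuclei (117 and 120 CPM), and it stood at 10.7 and 9.31 CPM in fibroblast-like nuclei. In TG the smooth muscle-like and cardiomyocyte-like levels did not differ beyond counting error, with a ratio of 1.25 (0.980 to 1.57). COL4A6, its neighbour on the X chromosome, was likewise highest in smooth muscle-like nuclei, at 84.2 (WT) and 62.0 CPM (TG). Of the other pair of type IV chains, COL4A3 was between 0.239 and 18 CPM and COL4A4 at most 6.0 CPM in any class. COL15A1, a collagen that links basement membranes to the fibrous matrix, was at 1228 (WT) and 1135 CPM (TG) in fibroblast-like nuclei. The next class had 243 CPM in WT (Schwann or neural-like) and 224 CPM in TG (lymphatic endothelial-like). COL18A1, whose end fragment is endostatin, reached 225 CPM in WT Schwann or neural-like and 244 CPM in TG smooth muscle-like nuclei.

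**Figure D2:**
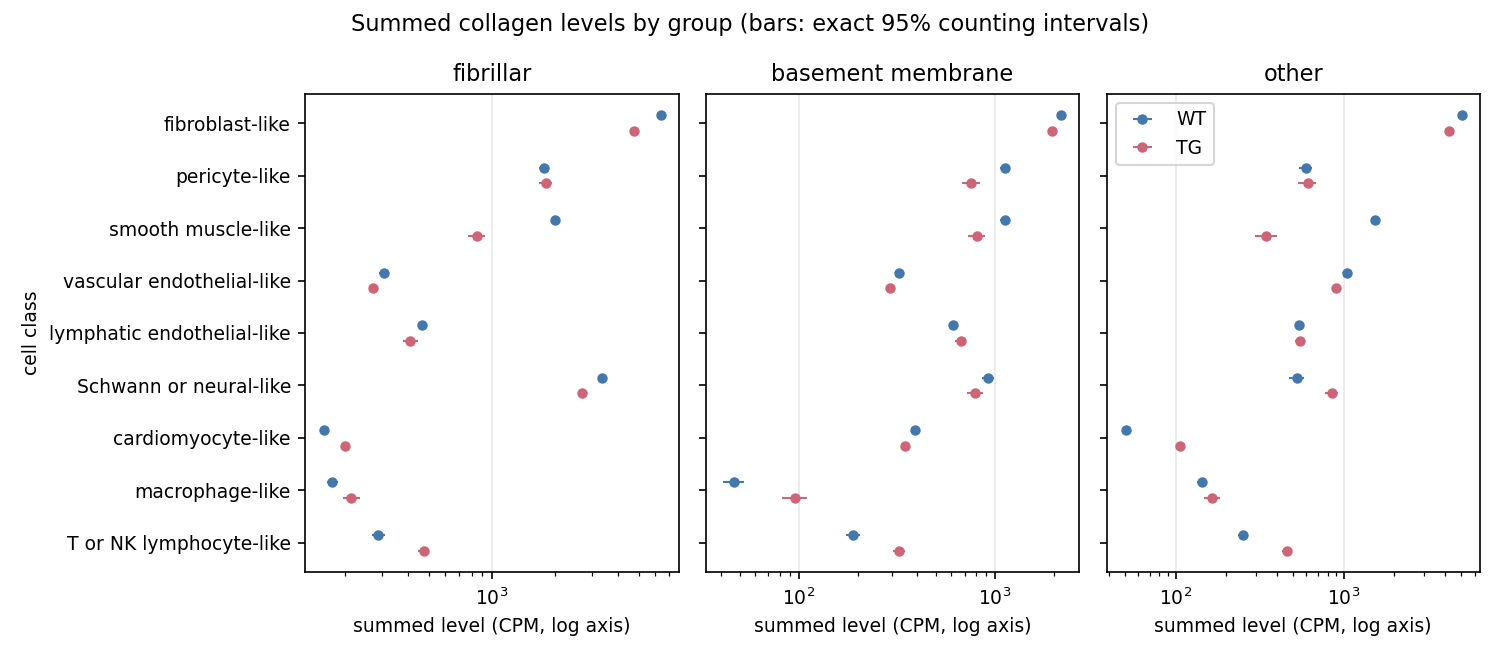
Summed levels (CPM, log axis) of the 10 fibrillar, 7 basement membrane and 22 other collagen genes in each class, with WT in blue, TG in red and bars for exact 95% counting intervals. The fibroblast-like sums are highest in all 3 panels, and the smooth muscle-like sums stand further apart between WT and TG than the fibroblast-like sums.

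In fibroblast-like nuclei the fibrillar genes summed to 6386 (WT) and 4753 CPM (TG), a ratio of 0.744 (0.734 to 0.754). The basement membrane genes summed to 2178 and 1946 CPM (ratio 0.894, 0.874 to 0.914) and the others to 5061 and 4231 CPM (0.836, 0.824 to 0.849). Nearly all WT nuclei of the class lay in clusters 3 (2354 nuclei) and 18 (491), and nearly all TG nuclei in cluster 5 (1900), so the class was held by different clusters in the libraries. The 12 fibroblast markers summed to 12919 (WT) and 12880 CPM (TG), with a median of 630 and 646 CPM. The near-equal sums do not mean that each marker stayed level. Of these markers, DCN was called higher and DDR2 lower in TG, with values given below. Cardiomyocyte markers stood in the class at 8.75% of the cardiomyocyte level in WT and at 28.7% in TG. The library-wide RNA profile was also subtracted, at 22.0% of the class UMIs in WT and 39.7% in TG. These shares are the median, over the cardiomyocyte markers, of their level in the class relative to that profile. The fibrillar ratio was then 0.941, and with nuclei of at least 2000 UMIs it was 0.889.

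Of the 29 collagen genes measured in fibroblast-like nuclei, 6 were higher and 7 lower in TG, and 16 were neither. Over all 14923 genes tested, 16.5% were higher and 9.06% lower, against 20.7% and 24.1% of the measured collagen genes. The median log2 ratio was -0.12 over the collagen genes and 0.05 over all genes.

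The lower genes were the fibrillar COL1A1, COL3A1 and COL5A1, the type VI chains COL6A1, COL6A5 and COL6A6, and COL14A1. COL6A6 was at 538 (WT) and 189 CPM (TG), the lowest ratio of the 29 at 0.350 (0.328 to 0.374). COL14A1, a fibril-associated collagen that regulates fibre diameter, was at 864 and 389 CPM (ratio 0.450, 0.430 to 0.471). COL1A1 was at 620 and 356 CPM (0.575, 0.548 to 0.604), and COL3A1 had a ratio of 0.603 (0.588 to 0.618). COL5A1 fell from 386 to 228 CPM and COL6A1 from 1113 to 669 CPM, while COL6A5 stood at 50.0 and 31.9 CPM. COL6A6 and COL14A1 kept their call under all 12 alternatives to the processing that were planned. COL1A1, COL3A1, COL5A1 and COL6A1 lost it at Leiden resolution 2, with nuclei of at least 2000 UMIs and after subtraction of the library-wide profile, and their highest ratios over the alternatives were 0.733, 0.768, 0.752 and 0.768.

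Partners of the lower chains did not all move with them. COL1A2, which assembles with COL1A1, was also below WT, at 1301 and 894 CPM, but its ratio of 0.687 just missed the call limit. COL6A2 stood at 204 CPM in both libraries and COL6A3 at 1322 and 1214 CPM, so the UMI ratio of COL6A1 to COL6A2 was 5.46 in WT (5.24 to 5.70) and 3.29 in TG (3.08 to 3.51). COL5A2 stood at 1589 and 1535 CPM, and the ratio of COL5A1 to COL5A2 was 0.243 and 0.149, with intervals that do not overlap.

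The higher genes were COL8A1, COL13A1, COL16A1, COL18A1, COL21A1 and COL23A1, none of them fibrillar. COL8A1, a short network collagen of vessel walls and of injured tissue, was at 601 (WT) and 993 CPM (TG) (ratio 1.65, 1.60 to 1.71). COL21A1, a fibril-associated collagen, was at 104 and 173 CPM (1.67, 1.53 to 1.81), and COL18A1 at 49.3 and 77.6 CPM (1.57, 1.39 to 1.78). COL16A1 had a ratio of 2.42 (2.11 to 2.77) and was the only higher gene among the 25 whose call held under all 12 alternatives. COL13A1, a membrane-spanning collagen, was at 1.99 and 14.5 CPM, with 25 UMIs in WT and 84 in TG (ratio 7.29, 4.62 to 11.9). COL23A1 rested on 15 and 18 UMIs. The COL18A1 and COL23A1 calls held in 5 of 12 and 5 of 10 alternatives, and those of COL8A1 and COL21A1 in 8 of 12.

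**Figure D3:**
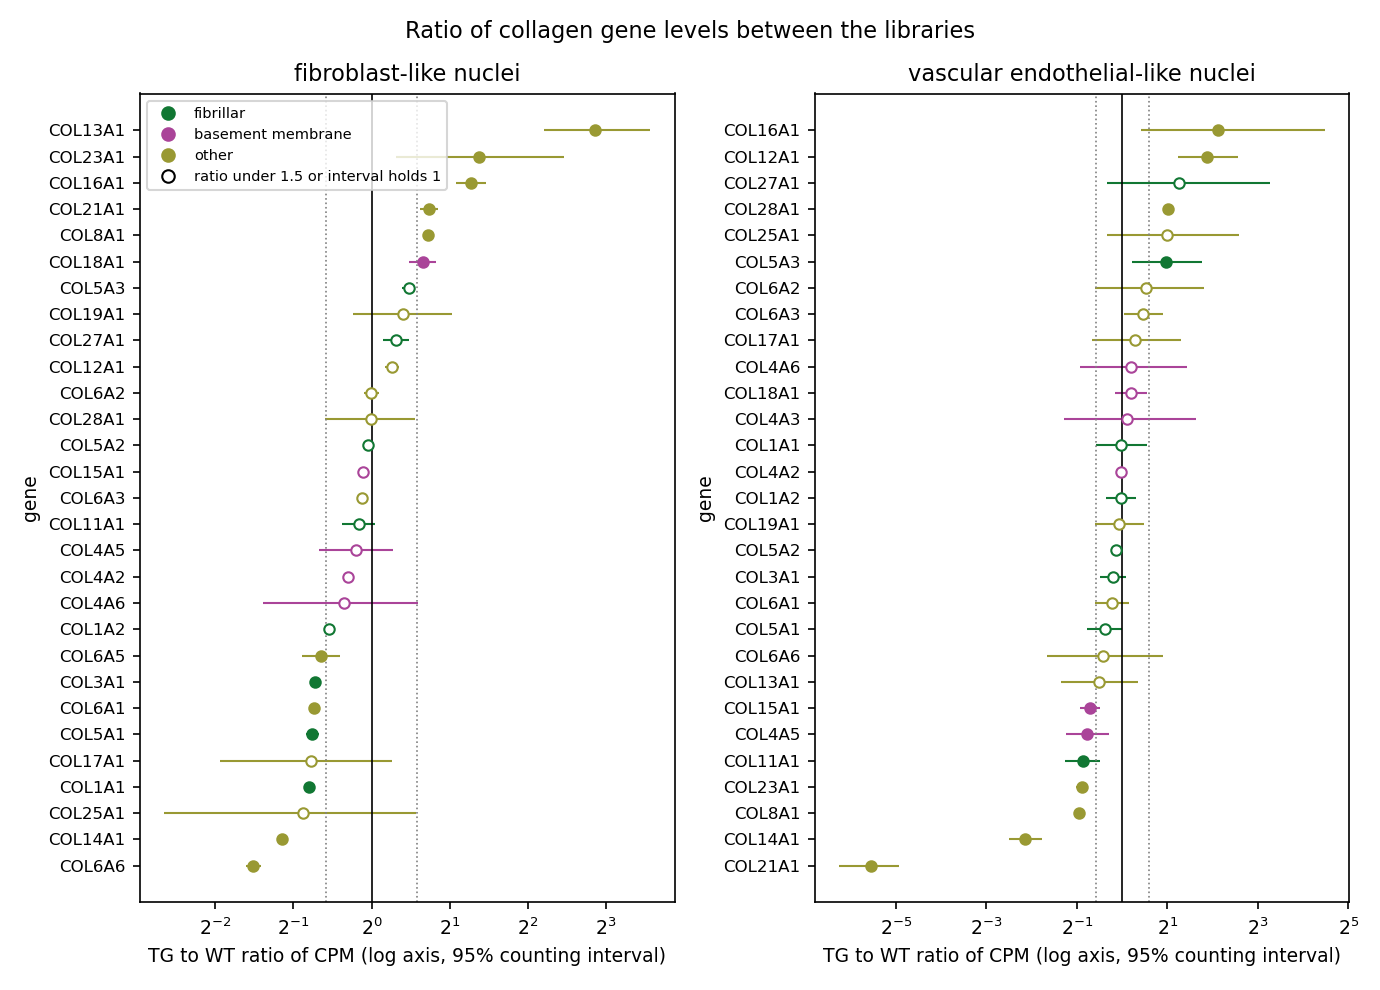
TG to WT ratios of CPM (log axis) of the 29 collagen genes measured in fibroblast-like (left) and in vascular endothelial-like nuclei (right), with 95% counting intervals and dotted lines at a ratio of 1.5 in either direction. Filled points meet the call. In fibroblast-like nuclei COL6A6 and COL14A1 are lowest and COL13A1 is highest, and in vascular endothelial-like nuclei COL21A1 is lowest at 0.0213.

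Clusters 5 and 18 held fibroblast-like nuclei of both libraries and allowed comparison inside a cluster, with 35 WT nuclei in cluster 5 and 63 TG nuclei in cluster 18. COL1A1 was lower in TG in both (981 against 359 CPM in cluster 5, 800 against 322 CPM in cluster 18). COL14A1 was also lower in both (965 against 383 and 1094 against 496 CPM), as were COL5A1 and COL6A1. COL3A1 had a ratio of 0.779 in cluster 5 and 0.377 in cluster 18, and COL6A6 0.775 (0.546 to 1.14) and 0.210. COL1A2 was called lower in cluster 5 (0.564, 0.49 to 0.65) and stood at 0.805 (0.710 to 0.909) in cluster 18. COL6A3 was at 0.977 (0.836 to 1.15) in cluster 5 and was called lower in cluster 18 (0.594, 0.481 to 0.726). COL5A2 lay above WT in cluster 5 (1.32, 1.13 to 1.56) and was lower in cluster 18 (0.563, 0.481 to 0.656). COL8A1 went from 1161 CPM in WT to 990 CPM in TG in cluster 5 (0.853, 0.724 to 1.01) and from 560 to 1028 CPM in cluster 18 (1.84, 1.59 to 2.11). COL16A1 was called in neither cluster (1.71, 0.780 to 4.69 in cluster 5 and 1.33, 0.511 to 2.935 in cluster 18), nor were COL13A1 and COL23A1. COL18A1 was called higher in cluster 18 alone (2.57, 1.44 to 4.35) and COL21A1 in cluster 5 alone (3.81, 1.74 to 10.4). Cluster 18, led by GFPT2, PI15 and CD248, differed from the main WT cluster 3 in its basement membrane genes: COL15A1 stood at 416 against 1414 CPM and COL4A2 at 441 against 989 CPM. COL12A1, a fibril-associated collagen of tendon-like tissue, went the other way, at 397 against 172 CPM.

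The genes that process, cross-link, break down and bind collagen were read from 6 lists with 70 genes, of which 62 were found. Beside the counts below, 16.5% of all 14923 genes tested in fibroblast-like nuclei were higher and 9.06% lower. The lists are short, and their counts were not tested against those shares. Of the folding and hydroxylation list, 2 of 18 measured genes were higher in TG fibroblast-like nuclei, 1 was lower and 15 were neither. PPIB, a prolyl isomerase of the collagen folding complex, was at 70.1 (WT) and 138 CPM (TG), and COLGALT2, which adds galactose to collagen, at 145 and 234 CPM. P3H2, a prolyl 3-hydroxylase that acts on type IV collagen, was lower at 256 and 164 CPM. Of 6 measured procollagen cleavage genes, TLL1 was higher (13 and 19 UMIs) and TLL2 lower (205 and 52 UMIs), both being proteinases of the BMP1 family, and 4 were neither. Of 7 cross-linking genes, LOXL1, a lysyl oxidase, was higher at 53.6 and 88.0 CPM and 6 were neither.

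Of 8 measured breakdown genes, TIMP1, an inhibitor of matrix metalloproteinases, was higher (39.0 CPM in WT, 132 CPM in TG, ratio 3.40, 3.03 to 3.81). MMP16, a membrane-bound metalloproteinase, was lower (466 and 206 CPM), as was FAP, a protease of activated fibroblasts (316 and 149 CPM), and 5 were neither. Of 7 collagen receptors, ITGB1, the shared chain of the collagen-binding integrins, was higher at 265 and 417 CPM, and so was ITGA2 at 4.53 and 7.42 CPM. DDR2, a receptor kinase for fibrillar collagen, was lower at 608 and 332 CPM, and 4 receptors were neither. Of 9 proteoglycans that bind fibres, DCN (3276 and 5057 CPM), PRELP (271 and 501 CPM) and BGN (15.8 and 38.1 CPM) were higher, OGN (221 and 145 CPM) was lower, and 5 were neither. The median log2 ratios of the 6 lists ran from -0.23 for breakdown to 0.38 for cross-linking and for the proteoglycans, against 0.05 over all genes.

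In vascular endothelial-like nuclei the basement membrane genes summed to 326 (WT) and 293 CPM (TG), a ratio of 0.899 (0.844 to 0.958). Of 29 measured collagen genes, 4 were higher in TG, 7 lower and 18 neither, against 11.7% higher and 8.21% lower over all 14001 genes tested. Cardiomyocyte markers stood at 11.3% of their own level in WT and at 26.6% in TG, and fibroblast markers at 6.54% and 5.38%. The class joined 4 clusters in unlike shares. Cluster 4 (leading genes BTNL9, FLT1 and RASGRF2) had 595 WT and 1620 TG nuclei, cluster 13 (SERTM1, STC1 and VEGFC) 478 and 600, and cluster 15 (GJA5 and SEMA3G) 74 and 578. Cluster 27 (MEI4, RYR3 and MYRIP) had 98 WT nuclei and 1 TG nucleus, so it may be a feature of that library.

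COL28A1, a collagen of the von Willebrand domain family known mainly from peripheral nerve, was higher in TG in every cluster that could be compared. Over the class it stood at 244 (WT) and 492 CPM (TG), a ratio of 2.01 (1.89 to 2.15). Inside cluster 13 it was at 262 and 717 CPM (2.73, 2.48 to 3.01), in cluster 4 at 305 and 472 CPM (1.55, 1.41 to 1.70), and in cluster 15 at 166 and 252 CPM (1.52, 1.12 to 2.12). It was also called higher in 4 other classes, cardiomyocyte-like, macrophage-like, lymphocyte and Schwann or neural-like, but at 6.0 to 44.8 CPM in TG. The gene was 20.8 times higher in vascular endothelial-like than in the next class in WT and 11.0 times higher in TG.

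Several genes called lower in the class had their highest level in the WT cluster 27. COL21A1 was at 846 CPM in that cluster and at 0 to 6.52 CPM in the other WT clusters, so the class went from 105 CPM in WT to 2.25 CPM in TG. COL23A1, a membrane-spanning collagen, was at 1816 CPM in cluster 27 and at 257 CPM over the WT class, against 138 CPM in TG. Without cluster 27 its TG to WT ratio turned to 3.12, and inside cluster 15 it was higher in TG, at 377 and 627 CPM (1.67, 1.36 to 2.06). COL8A1 was at 764 CPM in cluster 27, and over the class at 328 and 170 CPM, but it was still lower without that cluster (0.633, 0.586 to 0.685). Inside clusters COL8A1 was not lower: cluster 13 had 485 and 461 CPM (0.95, 0.873 to 1.03), cluster 15 had 177 and 183 CPM (1.04, 0.762 to 1.44), and in cluster 4, with the most nuclei, it was higher in TG at 7.09 and 19.0 CPM (2.68, 1.46 to 5.36). COL4A5 was at 71.3 CPM in cluster 27, and its class ratio of 0.584 turned to 1.18 without that cluster. With cluster 27 left out, 5 collagen genes were higher and 4 lower. COL14A1 was lower inside clusters 4, 13 and 15, with ratios of 0.421, 0.258 and 0.349, and fell over the class from 44.4 to 10.1 CPM.

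Cluster 4 carried most of the endothelial basement membrane collagen. The 7 genes summed to 520 (WT) and 347 CPM (TG) there, a ratio of 0.667. COL15A1 was at 154 (WT) and 57.5 CPM (TG) (0.374, 0.315 to 0.444), COL4A1 at 192 and 111 CPM (0.578, 0.503 to 0.665) and COL4A2 at 352 and 265 CPM (0.754, 0.684 to 0.832). In cluster 13 the same genes stood at 26.5 and 28.6, 65.6 and 64.5, and 149 and 142 CPM, and none was called. COL5A2 was above WT in clusters 4, 13 and 15 with intervals that left out 1, and in cluster 15 it reached the call (82.9 and 146 CPM).

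**Figure D4:**
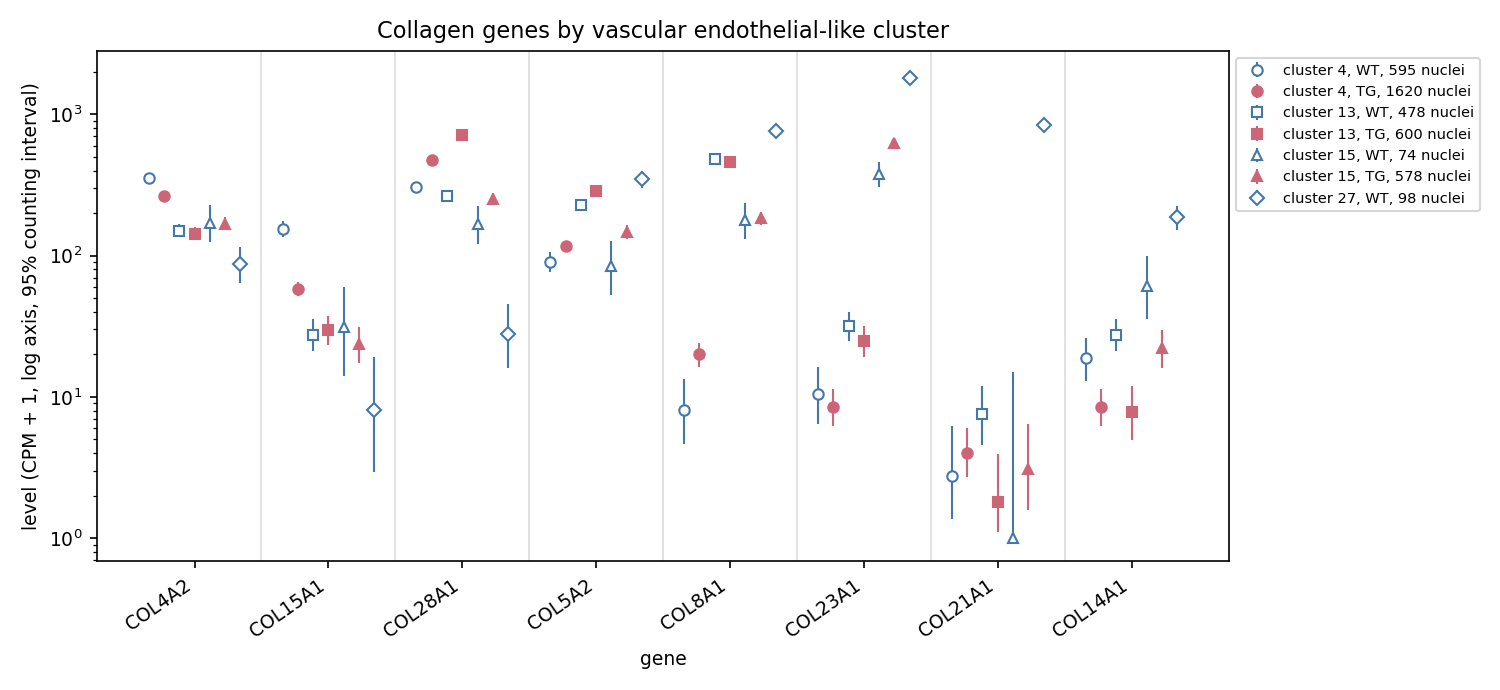
Levels (CPM + 1, log axis, 95% counting intervals) of 8 collagen genes in the 4 vascular endothelial-like clusters, with open blue symbols for WT and filled red symbols for TG. COL28A1 is higher in TG in clusters 4, 13 and 15, COL15A1 is lower in TG in cluster 4, and COL21A1 stands out in the WT cluster 27 at 846 CPM.

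In pericyte-like nuclei the basement membrane genes summed to 1126 (WT) and 756 CPM (TG), a ratio of 0.672 (0.591 to 0.762). The class held 320 WT and 169 TG nuclei, mostly in mural cluster m0 in WT (229) and m4 in TG (125). The names m0 to m11 are from a second split of the clusters with vessel wall markers. Of 20 measured collagen genes, 2 were higher and 2 lower in TG, near the 10.7% and 8.25% of all 8258 genes tested. COL4A2 was at 885 (WT) and 496 CPM (TG) (0.561, 0.480 to 0.653). COL4A5 was higher, at 60 and 101 CPM, as was COL8A1, with 13 and 15 UMIs. COL6A6 had 22 UMIs in WT and 0 in TG. Its WT level of 23.57 CPM was 3.36 times the 7.025 CPM of the 3 counts that a count of 0 allows. That figure leaves out the counting error in WT. The call held in the 6 alternatives that gave a value, with ratios up to 0.614. Cardiomyocyte markers were at 13.1% of their own level in WT and 40.4% in TG, and their part in these differences was not tested. The fibrillar sum stood at 1769 and 1805 CPM (1.02, 0.936 to 1.11).

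Smooth muscle-like nuclei had the lowest TG to WT ratio of total collagen among the 9 classes, with 4662 (WT) and 2001 CPM (TG) (0.429, 0.401 to 0.459). Of 19 measured genes, 2 were higher, 11 lower and 6 neither, against 15.1% and 10.7% of all 8446 genes. These 267 WT and 154 TG nuclei lay in different clusters. The WT nuclei were mostly in m1 (183 nuclei, led by ACTG2, TNC and ITGA8), with 40 in m8, and 151 of the TG nuclei were in m2. In m1 COL3A1 was at 1923 CPM, COL12A1 at 1080 CPM and COL8A1 at 1083 CPM. The WT cluster m8 had 120 CPM of COL3A1, 4.82 CPM of COL8A1 and no UMI of COL12A1, which allows up to 14.4 CPM. The TG cluster m2 had 138, 138 and 6.35 CPM of these genes, near m8 for COL3A1 and COL12A1.

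With m1 left out, which leaves 84 WT nuclei, 2 of the 12 calls that still had a value remained, and COL8A1 and COL15A1 turned to ratios of 1.73 and 1.17. COL27A1 was higher in TG over the class (110 and 192 CPM, ratio 1.74, 1.34 to 2.26), as was COL5A3 (25 and 18 UMIs). COL4A5 was at 318 CPM in m1, 212 CPM in m8 and 157 CPM in m2, and COL4A6 at 107, 72.2 and 63.5 CPM. Cardiomyocyte markers were at 38.3% in WT and 55.7% in TG of their own level.

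**Figure D5:**
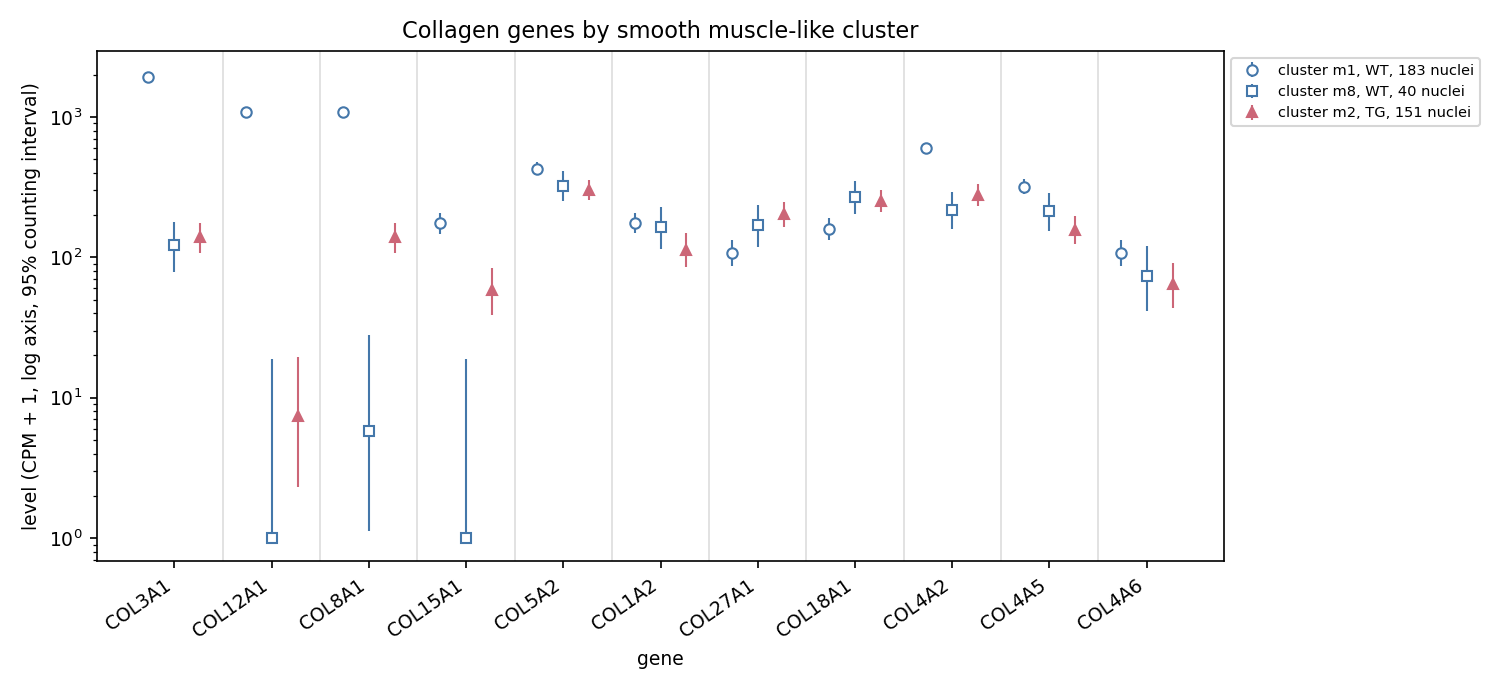
Levels (CPM + 1, log axis, 95% counting intervals) of 11 collagen genes in the smooth muscle-like clusters m1 and m8 (WT, open blue) and m2 (TG, filled red). COL3A1, COL12A1 and COL8A1 reach 1923, 1080 and 1083 CPM in m1, while for COL5A2 and COL1A2 the 3 clusters lie close together.

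In Schwann or neural-like nuclei, a single cluster with 166 WT and 138 TG nuclei, 4 of 20 measured collagen genes were higher in TG and 2 lower, against 11.1% and 9.33% of all 8370 genes. COL8A1 was at 14.9 CPM in WT (12 UMIs) and 224 CPM in TG (125 UMIs), a ratio of 15.1 (8.33 to 30.0). In TG this gene was at 11.3 CPM in macrophage-like, 52.5 CPM in cardiomyocyte-like and 89.4 CPM in T or NK lymphocyte-like nuclei. COL28A1 (6.19 and 44.8 CPM), COL12A1 (26.0 and 69.9 CPM) and COL6A3 (47.0 and 98.6 CPM) were also higher. COL14A1 (222 and 145 CPM) and COL1A2 were lower, but after subtraction of the library-wide profile their ratios were 1.86 and 1.01. COL14A1 kept its call in 8 of 12 alternatives and COL1A2 in 10 of 12. Cardiomyocyte markers stood at 29.4% of their own level in WT and 50.3% in TG in this cluster, and fibroblast markers at 6.52% and 9.14%. The 14 vascular endothelial markers, from the class where COL28A1 is highest, stood at 2.53% and 13.7%, with 5 in WT and all 14 in TG at 20 CPM or more and none at 0. Subtracting the library-wide profile gave no usable ratio for COL8A1 and COL28A1, since a gene was dropped at a WT level of 0 or under 20 UMIs. The part of such RNA in these ratios was therefore not tested.

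In lymphatic endothelial-like nuclei (cluster 8 in both libraries) total collagen stood at 1617 (WT) and 1627 CPM (TG), the ratio closest to 1 of the 9 classes (1.01, 0.960 to 1.05). Of 21 measured genes, 2 were higher and 1 lower, against 10.8% and 8.04% of all 11911 genes. COL8A1 was at 450 and 425 CPM there and COL15A1 at 174 and 224 CPM. COL27A1 was lower, at 33.2 and 16.4 CPM. COL6A3 (39 UMIs in each library) and COL14A1 (21 and 17 UMIs) were higher, but COL14A1 turned to ratios of 0.676 at resolution 0.5 and 0.719 with mixed clusters counted in.

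The 3 classes with the lowest total collagen had mostly higher calls in TG. In cardiomyocyte-like nuclei (clusters 0 and 2 in WT, 1 and 9 in TG, 7 in both), 13 of 34 measured genes were higher and 2 lower, against 25.4% and 8.85% of all 18897 genes. Of the 8 calls there on genes that reached 50 CPM in some class, 4 held in all alternatives that gave a value (COL5A3, COL8A1, COL12A1 and COL28A1). Fibroblast markers stood in the class at 0.568% of their own level in WT and 0.874% in TG, and their part in the calls was not tested. In macrophage-like nuclei 9 of 20 were higher and 2 lower, against 20.4% and 8.42%, and 3 of these 11 calls (COL5A3, COL8A1 and COL28A1) held in all alternatives that gave a value. Cluster 26 held 12 of the 1295 WT and 99 of the 609 TG macrophage-like nuclei, the rest being in cluster 6. In this class cardiomyocyte markers stood at 6.81% of their own level in WT and 25.3% in TG. Smooth muscle markers summed to 87.4 and 318 CPM and endocardial markers to 24.7 and 559 CPM. In TG, 2 of the 6 endocardial markers reached 20 CPM, and their median was 8.6 CPM. NRG1, on the endocardial list, was also a leading gene of cluster 26. The part of RNA from other classes in the calls was not tested. In T or NK lymphocyte-like nuclei 15 of 25 were higher and 2 lower, against 17.6% and 13.4%. The genes called higher in lymphocytes included COL6A3 (31.2 and 93.1 CPM), COL4A2 (82.7 and 146 CPM) and COL28A1 (11.7 and 43.6 CPM). Fibroblast markers stood there at 3.20% of their own level in WT and 7.86% in TG, cardiomyocyte markers at 26.4% and 54.0%, and vascular endothelial markers at 4.38% and 10.5%. The 13 lymphocyte markers themselves summed to 7098 CPM in WT against 3276 CPM in TG. Of the 3 higher genes with a ratio and at least 20 UMIs after subtraction of the library-wide profile, COL5A2 and COL4A5 remained higher. Over all alternatives their ratios ran from 1.64 to 18.7 and from 1.80 to 19.5, so the size of these differences was not stable. For the other calls the part of RNA from other classes was not tested.

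COL19A1, a fibril-associated collagen, was the exception among the genes of lymphocytes. It stood at 71.3 (WT) and 75.9 CPM (TG) in T or NK lymphocyte-like nuclei, 7.40 times (5.33 to 10.5) and 8.25 times (6.38 to 10.7) the next class. At Leiden resolution 2 the lymphocytes fell into 3 clusters. COL19A1 was at 108 (WT) and 74.9 CPM (TG) in cluster 15 of that clustering, and at 11.8 and 17.7 CPM in cluster 26, which had the highest level of the T cell gene CD3E. Cluster 36 held 28 UMIs of it in WT (60.4 CPM) and 13 in TG (206 CPM). A dendritic-like cluster led by XCR1 and FLT3 also held COL19A1, at 101 CPM in WT (93 UMIs in 148 nuclei) and 130 CPM in TG (36 UMIs in 52 nuclei). The same cluster held PAX5, a B cell gene, at 34.6 (WT) and 148 CPM (TG), against at most 2.16 CPM in the lymphocyte clusters, and XCR1 at 595 and 184 CPM, so COL19A1 cannot be assigned to a cell type there. The values by cluster were examined after COL19A1 had been seen to peak in lymphocytes.

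The 14 collagen genes under 50 CPM in every class were COL2A1, COL4A3, COL4A4, COL6A5, COL8A2, COL9A1, COL9A3, COL10A1, COL11A2, COL13A1, COL17A1, COL22A1, COL25A1 and COL26A1. Of these, COL6A5 reached 50.0 CPM when rounded, in WT fibroblast-like nuclei, and COL4A3 18 CPM, in TG smooth muscle-like nuclei. COL22A1, known from tissue junctions, was at 10.7 (WT) and 14.1 CPM (TG) in pericyte-like nuclei and at most 2.45 CPM elsewhere. It had 57 (WT) and 67 UMIs (TG) over all classes. The interval of its ratio to the next class was wide, 2.59 to 56.9 in WT and 1.46 to 23.8 in TG. COL24A1, outside the rule, was highest in lymphatic endothelial-like nuclei, at 13.7 and 11.6 CPM.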

How the data were processed

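Single nuclei from frozen left ventricle were profiled, per the labels' protocols, by 10x Genomics 3' sequencing (v3.1). The deposited values are counts of UMIs, 1 matrix per library. Per the submitters' processing notes, Cell Ranger 3.1.0, Seurat 3.1.1 and Sscrofa11.1 were used, whereas the matrices name Cell Ranger 5.0.0 per the file headers. How reads in introns were counted is not given in the sources used here. The library totals were 127126477 UMIs in WT and 89324966 in TG.

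Nuclei with at least 500 genes and at most 5% mitochondrial UMIs were kept (WT, 16725 of 18251 barcodes and TG, 14939 of 15000). They were clustered together with scanpy 1.11.5 (2000 variable genes without collagens, 30 components, 15 neighbours) and the Leiden method at resolution 1 with seed 1. To be named for a class, a cluster needed 60% or more of that class's markers (3 as a minimum) at 20 CPM and at log2 1 above the 25th percentile over clusters. Scrublet marked 1163 nuclei in WT and 0 in TG, so its marks were not used to remove nuclei. A cluster was set aside as mixed when an unrelated class's markers averaged log2 3 above that percentile, or log2 1.5 where its Scrublet score, which both libraries have, averaged 3 times the library median or more. The score decided this for clusters such as 12 and 14, endothelial-like and fibroblast-like with cardiomyocyte markers. Mural clusters were split once more into pericyte-like and smooth muscle-like. Thresholds of naming were set after clusters had been seen, and names may differ from those of the study.

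Counts were summed per class and library. Levels carry exact Poisson intervals and ratios exact conditional binomial intervals at 95% (scipy 1.17.1). These cover counting error only, not spread between nuclei or animals. No fit across replicates was possible. The ratio calls were run on simulated counts with Poisson error alone, the error that the intervals assume. There 96.0% of fibroblast-like and 95.9% of vascular endothelial-like intervals held the true ratio. With no spread between nuclei or animals in the simulation, it cannot show how such spread affects the calls. Genes reaching 50 CPM in at least 1 class are described in full, the rest by counts and ranges, and from each pathway list at most 4 genes called in fibroblast-like nuclei. The members, lists and tests were chosen with earlier results of these data known. Alternatives changed the clustering, filters, scaling (TMM factors, edgeR 4.0.16), weighting, depth, mixed clusters and free RNA. For the last, the library-wide profile was subtracted from a class at the share that accounts for its median cardiomyocyte marker. Gene positions are RefSeq models of Sscrofa11.1, matched for 38 of the 39 genes.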

Additional observations from a re-analysis of the deposited data

How the results depend on the processing

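No paired analysis was possible because each genotype is 1 library, and leaving out a replicate was likewise not possible. The fibrillar sum of fibroblast-like nuclei stayed below 1 in every setting run. Its ratio of 0.744 became 0.508 with each library clustered on its own, 0.612 at resolution 0.5, 0.865 at resolution 2, 0.889 with nuclei of at least 2000 UMIs, 0.627 with no mitochondrial limit, 0.689 with TMM factors, 0.770 without the most abundant gene, 0.707 with equal weights, 0.724 thinned, 0.614 with mixed clusters and 0.941 after profile subtraction. The endothelial basement membrane ratio of 0.899 became 0.793 with separate clustering, 0.837 after subtraction and 0.667 in cluster 4 alone, a setting chosen after seeing the data, like those without cluster 18, 27 or m1. The pericyte-like ratio of 0.672 became 0.531 at resolution 0.5 and 0.418 with no mitochondrial limit. It had no value with collagens among the variable genes, separate clustering, 2000 UMIs or subtraction.

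Higher fibroblast-like calls went from 6 to 3 at a ratio of 2. Lower calls there went from 7 to 11 with separate clustering, to 4 at resolution 2, with 2000 UMIs and after subtraction, and to 2 at a ratio of 2. Higher endothelial calls went from 4 to 2 when thinned, to 7 with mixed clusters and to 2 after subtraction. Lower ones went from 7 to 12 at resolution 0.5 and with 2000 UMIs, to 11 with no mitochondrial limit, to 4 when thinned and without cluster 27, and to 2 at a ratio of 2.

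Single genes changed direction as follows, and the cause was not tested. Without m1, smooth muscle-like COL15A1 was at 1.17 and COL8A1 at 1.73. In cluster 4 alone, COL8A1 was at 2.68, COL11A1 at 2.39 and COL4A5 at 1.37. Without cluster 27, endothelial COL23A1 was at 3.12 and COL4A5 at 1.18, and COL4A5 was at 1.10 with no mitochondrial limit and at 1.02 with mixed clusters. After subtraction, macrophage-like COL18A1 was at 0.199, and Schwann or neural-like COL1A2 at 1.01 and COL14A1 at 1.86. COL14A1 was at 0.676 in lymphatic endothelial-like nuclei at resolution 0.5, at 0.719 with mixed clusters, and at 0.990 in cardiomyocyte-like nuclei with equal weights. TMM factors shifted the median log2 ratio of all genes by -0.11 in fibroblast-like, -0.10 in pericyte-like, -0.22 in smooth muscle-like and -0.20 in macrophage-like nuclei, and leaving out the most abundant gene by 0.12 in cardiomyocyte-like nuclei.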
